A study of Mus musculus with 6 samples.

Results

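The miR-132 and miR-212 cluster was followed in small RNA sequencing of mouse pancreas with acute pancreatitis and without it. Its members are the 4 mature arms mmu-miR-132-5p, mmu-miR-132-3p, mmu-miR-212-5p and mmu-miR-212-3p, which were chosen by name from the 1414 rows of the deposited table. The cluster was selected on read counts of these same 6 libraries, in which miR-212-5p had already been seen to be higher in the pancreatitis group. Differences between the groups in the members are therefore given below as a description, with no p-value. A call of a member is given only beside the share of all rows called, or as a call from which nothing is read.

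The model group held 3 libraries, with replicate numbers 56, 57 and 59, and the control group held 3, with numbers 43, 44 and 45. Both groups were wild-type C57BL/6 mice of 22 to 25 g that received 7 intraperitoneal injections 1 hour apart, and pancreas was taken 24 hours after the start. The model mice were given caerulein at a stated 50 mg/kg, a peptide related to cholecystokinin that drives acinar cells beyond normal secretion. Lipopolysaccharide (LPS, the endotoxin of gram-negative bacteria) was added to the last injection. The labels also list saline for them. The control mice were given saline throughout. No group had caerulein or LPS alone, so the effects of both agents cannot be told apart. Nothing in the labels ties a library to a single mouse, so part of the spread within a group, and of the p-values resting on it, may be technical.

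Both hairpins are cut from a shared primary transcript. In neurons that transcript is driven by the transcription factor CREB, which cyclic AMP and electrical activity switch on, and miR-132-3p is known there as a regulator of dendrite growth. In mouse macrophages miR-132-3p is induced by LPS and lowers acetylcholinesterase, and in islets of obese mice both miRNAs have been described as raised. Each hairpin yields a 5p and a 3p arm, of which either can be loaded into Argonaute, and the bases at positions 2 to 8, the seed, largely set which mRNAs it binds.

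The mature sequences of the 4 arms are printed because the seeds divide them otherwise than the hairpins do. All 4 matched RefSeq's GRCm38.p6 entries base for base, and they are written 5′ to 3′ with the seed in capitals.
miR-132-5p: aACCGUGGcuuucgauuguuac
miR-212-5p: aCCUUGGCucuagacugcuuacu
miR-132-3p: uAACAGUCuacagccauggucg
miR-212-3p: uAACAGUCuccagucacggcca
The 3p arms share the seed AACAGUC, and no other row of the table and no other mature mouse miRNA in RefSeq's table carried it. They were identical at 17 of 22 positions, including the 9 bases at the 5′ end. Counted from that end, miR-212-3p differs from miR-132-3p by A10C, C14U, U17C, U20C and G22A. The 5p arms had different seeds, with 7 edits between them. Each arm is 22 or 23 bases long, so counts of different arms need no correction for length, although adapter ligation can favour some ends over others.

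In GRCm38.p6, Mir212 lies at chr11:75173388-75173478 and Mir132 at chr11:75173682-75173747, both on the plus strand with 203 bases between them. In GENCODE M21, on the same assembly, they fall in the intron between exons 1 and 2 of 1700016P03Rik, a noncoding transcript tagged as a host of small RNAs that runs from 75172560 to 75177633. Neither hairpin overlapped any of its 3 exons. Of the neighbouring protein-coding genes, Hic1 lies upstream of that host and Ovca2 overlaps its 3′ part, both on the opposite strand. The next hairpin in RefSeq's table, Mir22, was 290 kb away.

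The libraries held 2489009 to 3006220 counts in the model group and 1943693 to 2629801 in the control group. Levels are given as CPM, counts scaled to a common library size with TMM factors, which assume that the typical miRNA did not differ between libraries. A count of 0 would allow up to 0.896 to 1.80 CPM (3 counts per library, counting error only). Pancreas was marked by acinar miRNAs (miR-216a, miR-216b, miR-217, miR-148a and miR-802), which summed to 71076 to 72845 CPM in model and 89148 to 134519 CPM in control libraries. Against these the cluster was scarce: its 4 arms together had 75.0 to 93.5 CPM in model and 17.0 to 32.7 CPM in control libraries.

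All 4 arms had higher mean levels in the model group, by 2.05 to 4.13 times as a ratio of means, and miR-212-5p differed most. Model libraries lay above all control libraries for 3 of the 4 arms, miR-132-3p being the exception. Among all 499 rows tested, 14.4% had every model library above every control library. The fit across these rows called 1 of the 4 members higher, miR-212-5p, where 1% of all rows were called higher (edgeR quasi-likelihood test, adjusted p under 0.05). Since the members were picked with this contrast known, nothing is read from these counts.

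**Figure D1:**
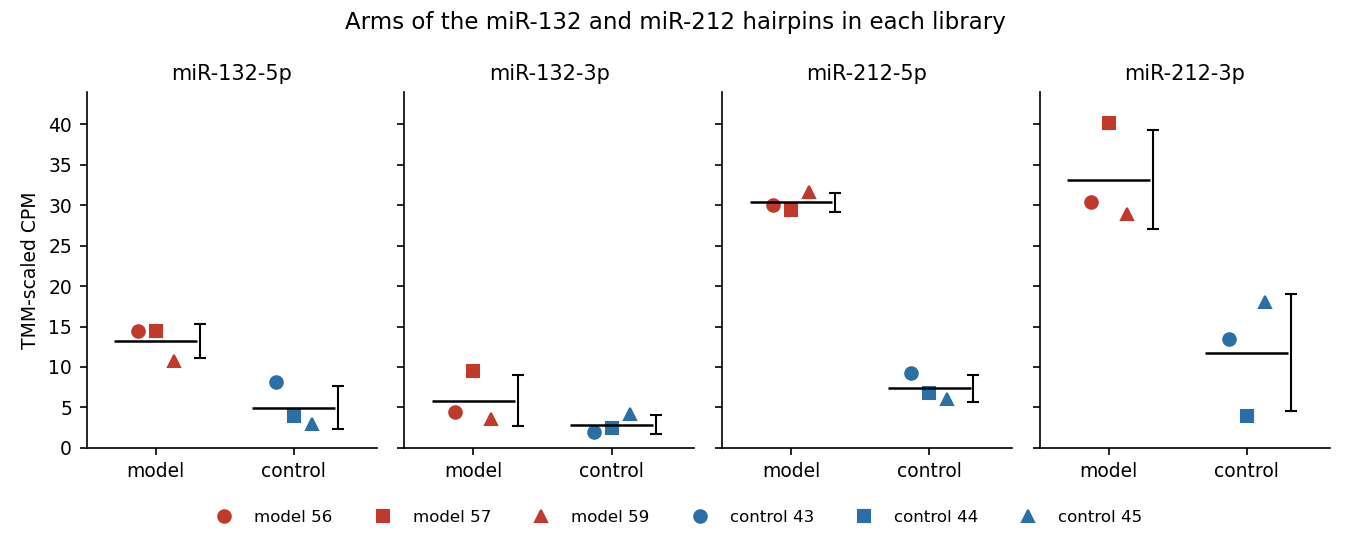
TMM-scaled CPM of each arm (vertical axis) in the 3 model and 3 control libraries, with the mean as a line and the SD as a bar. The model libraries of miR-212-5p sit between 29.4 and 31.7 CPM and its controls between 5.99 and 9.24, while the groups of miR-132-3p overlap.

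miR-212-5p, the arm opposite the textbook guide strand of its hairpin, had 81, 96 and 106 counts in model replicates 56, 57 and 59, against 24, 14 and 10 in control replicates 43, 44 and 45. These correspond to 30.0, 29.4 and 31.7 CPM in the model libraries and 9.24, 6.81 and 5.99 CPM in the control libraries. The lowest model library was 3.19 times the highest control. Means were 30.4 ± 1.16 CPM in the model and 7.35 ± 1.69 CPM in the control group (SD, n = 3 each), with a log2 fold change of 2.03 (SE 0.30). The SD of the model group was below the 3.14 CPM that counting error alone would give, so at this depth no spread beyond counting was visible among those 3 libraries.

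miR-212-3p, which carries the seed shared with miR-132-3p, was the most abundant arm on average. Its counts were 82, 131 and 97 in model replicates 56, 57 and 59, and 35, 8 and 30 in control replicates 43, 44 and 45. In CPM this was 30.4, 40.2 and 29.0 in the model libraries and 13.5, 3.89 and 18.0 in the control libraries. Control replicate 44 stood well below the other controls, and the SD of the control group, 7.19 CPM, was well above its counting error of 2.44 CPM. Group means were 33.2 ± 6.09 CPM in model and 11.8 ± 7.19 CPM in control libraries (SD, n = 3 each), with a log2 fold change of 1.50 (SE 0.50). Without control replicate 44 the log2 fold change was 1.07.

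miR-132-5p, usually regarded as the passenger strand, had 39, 47 and 36 counts in model replicates 56, 57 and 59, against 21, 8 and 5 in control replicates 43, 44 and 45. Its level was 14.4, 14.4 and 10.8 CPM in the model libraries and 8.08, 3.89 and 3.00 CPM in the control libraries. The groups did not overlap, but control replicate 43 came within a factor of 1.33 of the lowest model library. The means were 13.2 ± 2.12 CPM in model and 4.99 ± 2.72 CPM in control libraries (SD, n = 3 each), a log2 fold change of 1.36 (SE 0.44). It was 1.90 without control replicate 43 and 1.09 without control replicate 45.

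miR-132-3p, the arm to which most described functions of the cluster belong, was the scarcest. It had 12, 31 and 12 counts in model replicates 56, 57 and 59, and 5, 5 and 7 in control replicates 43, 44 and 45. Its levels of 4.44, 9.50 and 3.58 CPM in the model libraries overlapped the 1.92, 2.43 and 4.19 CPM of the control libraries, since control replicate 45 lay above model replicate 59. The means were 5.84 ± 3.20 CPM in model and 2.85 ± 1.19 CPM in control libraries (SD, n = 3 each), with a log2 fold change of 1.07 (SE 0.56). Without model replicate 57, the highest library, the value was 0.55. With 17 counts in the control group as a whole, the exact 95% Poisson interval of its pooled control level ran from 1.57 to 4.31 CPM. In the model group the interval ran from 4.45 to 7.69 CPM. These intervals cover counting error only, and the SD of the model group was well above its counting error of 1.37 CPM. The pooled intervals are therefore too narrow for the spread between libraries, which overlapped.

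The order of mean levels was the same in both groups, with miR-212-3p first, then miR-212-5p, miR-132-5p and miR-132-3p. The 2 arms of miR-212 did not differ beyond their spread in either group, and their order turned round in model replicate 59 and control replicate 44. In the model group the libraries of miR-212-5p all lay above those of miR-132-5p, and these above those of miR-132-3p. In the control group all neighbours in this order overlapped. Among all 1414 rows, miR-212-3p ranked from 270 to 299 in model libraries and from 333 to 476 in control libraries, and miR-132-3p ranked from 405 to 495 in model libraries and from 487 to 567 in control libraries.

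Shares of counts within a library do not depend on scaling between libraries. miR-212 gave more counts than miR-132 in all 6 libraries, with 163, 227 and 203 counts from both its arms in model replicates 56, 57 and 59, and 59, 22 and 40 in control replicates 43, 44 and 45. The counts of both miR-132 arms were 51, 78 and 48 in the model and 26, 13 and 12 in the control libraries. The share of miR-212 in the cluster was 77.2% ± 3.34 in the model and 69.7% ± 7.04 in the control group (SD, n = 3 each), and the groups overlapped. As a log2 ratio of miR-212 to miR-132 with 1 count added to each, this was 1.75 ± 0.28 in model and 1.18 ± 0.47 in control libraries (SD, n = 3 each). The difference of 0.57 was of the size of the spread between libraries. It was 0.34 without control replicate 44 and ranged up to 0.81, without control replicate 45.

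Within miR-132 the 5p arm outnumbered the 3p arm in 5 of 6 libraries, whereas in mouse brain the 3p arm is known as the main product. Brain was not sequenced here and adapter ligation can favour some ends, so a difference between tissues was not tested. It took 76.5%, 60.3% and 75.0% of the hairpin's counts in model replicates 56, 57 and 59, and 80.8%, 61.5% and 41.7% in control replicates 43, 44 and 45. The exact 95% binomial interval lay above 50% in model replicates 56 and 59 and in control replicate 43, and spanned it in the other libraries. In control replicate 45, with 12 counts, it ran from 15.2% to 72.3%.

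Within miR-212 neither arm outnumbered the other throughout, and the balance varied most among control libraries. The 5p share was 49.7%, 42.3% and 52.2% in model replicates 56, 57 and 59, and 40.7%, 63.6% and 25.0% in control replicates 43, 44 and 45. The intervals of model replicate 57, up to 49.0%, and control replicate 45, up to 41.2%, lay below 50%.

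**Figure D2:**
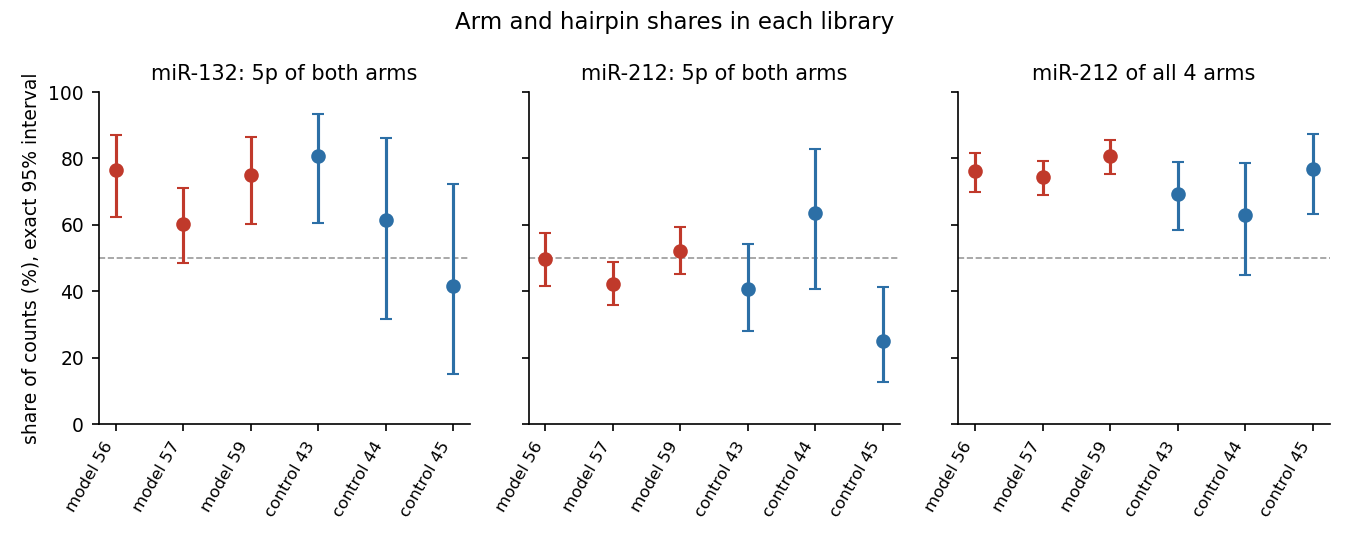
Share of counts in percent (vertical axis) in each library: the 5p arm within miR-132, the 5p arm within miR-212, and miR-212 within all 4 arms, with exact 95% binomial intervals. The share of miR-212 in the cluster is above 50% in all 6 libraries, and the intervals of the control libraries are wide.

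Expressed as log2(5p/3p) with 1 count added to each arm, the balance was 1.24 ± 0.57 in model and 0.68 ± 1.15 in control libraries for miR-132 (SD, n = 3 each). For miR-212 it was -0.11 ± 0.30 in model and -0.43 ± 1.12 in control libraries (SD, n = 3 each). The differences, 0.56 (SE 0.61) and 0.32 (SE 0.57), were within the spread. Single libraries moved both: for miR-132 the difference was 0.0088 without control replicate 45, 0.37 without model replicate 56 and 1.15 without control replicate 43. For miR-212 it was -0.22 without control replicate 45, 0.20 without model replicate 59, 0.48 without model replicate 57 and 0.90 without control replicate 44. Of 125 hairpins with enough counts on both arms, 0.8% had a called arm ratio, neither miR-132 nor miR-212 among them (limma; at an unadjusted p under 0.05, 0 of these 2 and 14.4% of all hairpins). The groups did not overlap in the arm ratio in 20% of the 125 hairpins and overlapped for both members.

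Ordered by log2 fold change among the 499 tested rows, miR-212-5p came 8th from the top, miR-212-3p 17th, miR-132-5p 20th and miR-132-3p 36th. The median over all tested rows was 0.0050 and their SD 0.80. Rows at such low levels also spread widely, as the plot of fold change against level shows. The cluster was picked with this contrast known, so nothing is read from its places in this order.

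**Figure D3:**
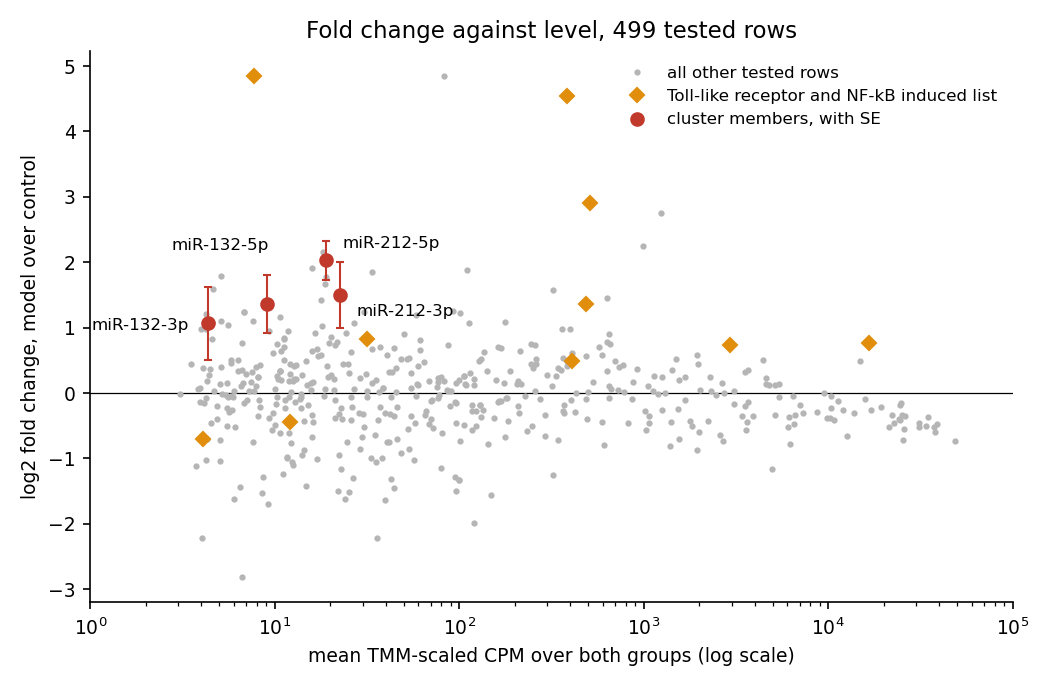
Log2 fold change of model over control (vertical axis) against the mean TMM-scaled CPM over both groups (horizontal axis, log scale) for the 499 tested rows, with the cluster members and their SE marked and the list of Toll-like receptor and NF-kB induced miRNAs as diamonds. The 4 members lie between 1.07 and 2.03 in the low part of the range, and the highest diamond is miR-147-3p, whose plotted value is a fit to 3 control counts.

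Other miRNAs that Toll-like receptors or NF-kB induce in macrophages were set beside the cluster, as a list of miR-155, miR-146a, miR-146b, miR-147, miR-21a, miR-9 and miR-187 with both arms. Over all tested rows, edgeR called 1% higher and 0.2% lower, 11.4% were higher and 12.4% lower at an unadjusted p under 0.05, and DESeq2 called 3.82% in each direction. The counts of this list and of those that follow stand beside these shares. All lists were chosen with earlier results of these data known, so nothing is read from an excess over the shares. Of 10 tested rows of the induced list, 2 rose and 0 fell (edgeR; at an unadjusted p under 0.05, 6 were higher and 0 lower, and DESeq2 called 5 higher and 0 lower). The median log2 fold change of the list was 0.80, against 0.0050 over all rows and 1.07 to 2.03 in the cluster members. Of its 10 tested rows, 8 had values above 0, while miR-9-3p was at -0.44 and miR-187-5p at -0.70. The star strand miR-21a-3p rose to 736 ± 262 CPM in model libraries, against 31.2 ± 16.2 CPM in control libraries (SD, n = 3 each; edgeR adjusted p = 0.0077). The Toll-like receptor induced miR-147-3p rose to 138 counts in the model group, against 3 in the control group, a ratio of rates of 31.2 with an exact 95% interval of 10.5 to 153 for counting error (edgeR adjusted p = 0.0273).

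The most abundant rows of that list were all far above the cluster in level. miR-21a-5p, the guide strand of miR-21a, was at 20877 ± 2050 CPM in model and 12256 ± 1970 CPM in control libraries (SD, n = 3 each), on the log2 scale 0.77 higher (SE 0.16; adjusted p = 0.0564, edgeR). miR-146a-5p, which restrains NF-kB signalling, was at 3658 ± 1629 CPM in model and 2202 ± 558 CPM in control libraries, on the log2 scale 0.73 higher (SE 0.35; adjusted p = 0.246, edgeR). miR-155-5p, a miRNA of activated macrophages and lymphocytes, was at 906 ± 589 CPM in model and 121 ± 46.6 CPM in control libraries, on the log2 scale 2.91 higher (SE 0.55; adjusted p = 0.0564, edgeR). The log2 fold changes of the cluster members lay between those of the abundant miR-21a-5p and miR-146a-5p and that of miR-155-5p. Whether the cluster differs from these miRNAs was not tested.

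**Figure D4:**
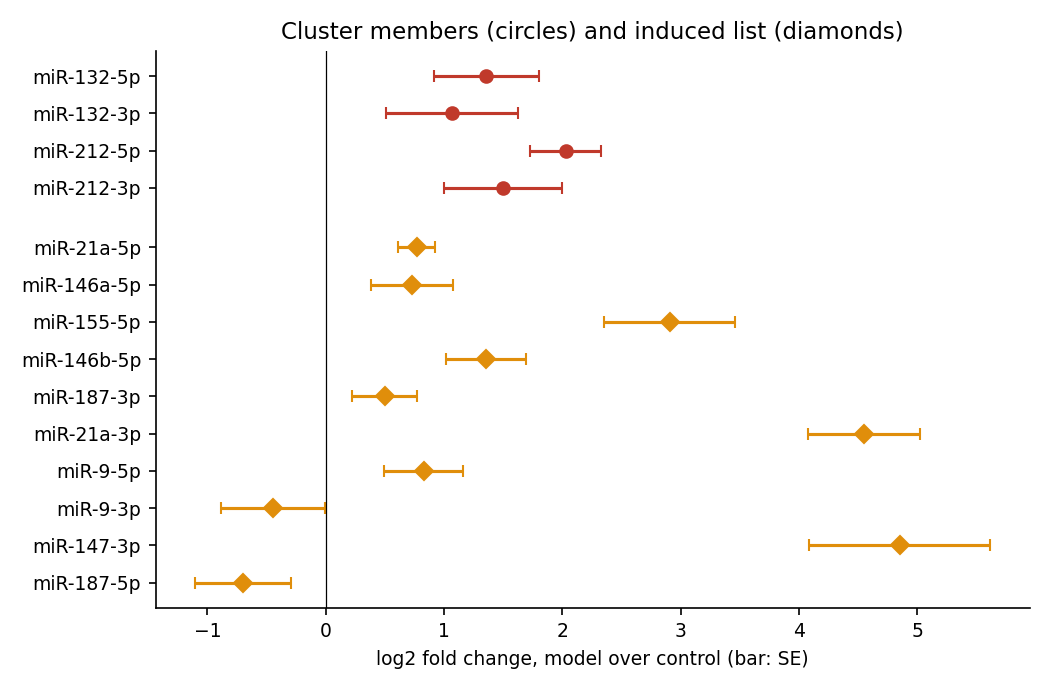
Log2 fold change of model over control with its SE (horizontal axis) for the 4 cluster members (circles) and the 10 tested rows of the Toll-like receptor and NF-kB induced list (diamonds, in order of abundance). The members run from 1.07 to 2.03, the lowest row of the list is miR-187-5p at -0.70, and the highest is miR-147-3p, whose plotted value is a fit to 3 control counts.

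Markers of cells that could carry the cluster were read in the same libraries. Whole tissue was sequenced, so more cells of a type and more RNA per cell cannot be told apart. Of 9 tested leukocyte rows (miR-223, miR-142a, miR-150, miR-342, miR-511 and miR-155, which the list above also holds), 1 rose and 0 fell (edgeR; 4 higher and 0 lower both at an unadjusted p under 0.05, where 11.4% of all rows were higher, and with DESeq2, which called 3.82% of all rows higher). Their median log2 fold change was 0.99 and 0 of 12 rows were at 0. Their summed level was 5554 to 12332 CPM in model and 4883 to 7268 CPM in control libraries. The called row was the myeloid miR-223-3p, at 2160 ± 60.8 CPM in model and 321 ± 129 CPM in control libraries (SD, n = 3 each; edgeR adjusted p = 0.0077). The most abundant row, miR-150-5p, was at 3452 ± 2226 CPM in model and 4401 ± 769 CPM in control libraries (SD, n = 3 each). Its log2 fold change was -0.35, whereas 8 of the 9 tested rows had values above 0. The part of leukocytes in the values of the cluster was not tested.

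Neuron-enriched miRNAs were read as a further list (miR-124, miR-9, miR-134, miR-137, miR-138, miR-128, miR-129, miR-153, miR-218 and miR-219a, with miR-9 again shared). Of 16 tested rows, 0 rose and 0 fell (edgeR; at an unadjusted p under 0.05, 2 were higher and 4 lower, against 11.4% and 12.4% of all rows, and DESeq2 called 0 higher and 1 lower), with a median log2 fold change of -0.099. Their summed level was 5017 to 6154 CPM in model and 5897 to 6949 CPM in control libraries, and 0 of 23 rows were at 0. The brain-defining miR-124-3p was at 17.2 ± 5.71 CPM in model and 12.2 ± 7.21 CPM in control libraries (SD, n = 3 each). The most abundant row, miR-153-3p, was at 1906 ± 216 CPM in model and 2560 ± 148 CPM in control libraries (SD, n = 3 each). Its log2 fold change was -0.43, and 8 of the 16 tested rows had values above 0.

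For the other cell types, lists gave 0 calls in either direction (edgeR). The counts for single lists below are to be set against 11.4% higher and 12.4% lower among all rows at an unadjusted p under 0.05, and 3.82% in each direction with DESeq2. At an unadjusted p under 0.05, 1 of 11 islet rows was lower and DESeq2 called 0, and 4 of 10 acinar rows were lower, of which DESeq2 called 2. By the same measures, 3 of 9 epithelial rows were lower with 0 called, 1 of 9 mesenchymal rows was higher with 0 called, 1 of 2 endothelial rows was lower with 0 called, and 0 of 7 red blood cell rows passed either. The median log2 fold change was 0.13 for islet, -0.49 for acinar, -0.061 for epithelial, 0.20 for mesenchymal, -0.12 for endothelial and -0.11 for red blood cell rows. All 10 acinar rows had values below 0 with TMM factors. The median of all rows moved to 0.29 with total counts alone, to 0.79 with the authors' totals and to -0.29 with upper quartile factors. The lists were not read under these other scalings. The sign of values of this size can therefore depend on the scaling, as can the sums below. None of these lists had a row at 0 in all libraries. In the mesenchymal list miR-199a-3p and miR-199b-3p held the same values, as did miR-486a-5p and miR-486b-5p in the red blood cell list. Both rows of each pair enter the counts, medians and sums given here. The islet sum was 57569 to 69298 CPM in model and 73838 to 100053 CPM in control libraries. The epithelial sum was 75258 to 82897 CPM in model and 91093 to 108134 CPM in control libraries, and the mesenchymal sum 18152 to 21712 CPM in model and 18658 to 28683 CPM in control libraries. The endothelial sum was 32192 to 37849 CPM in model and 40543 to 47661 CPM in control libraries, and the red blood cell sum 7176 to 12270 CPM in model and 10760 to 13758 CPM in control libraries. The part of these cell types in the cluster's values was not tested.

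Rows whose profile over the 6 libraries was nearest to each arm were found from the root mean square difference of centred log2(CPM + 1), among 364 known miRNAs of at least 10 CPM. Nearest to miR-212-5p were miR-18a-5p of the miR-17 to miR-92a cluster (difference 0.20), miR-223-5p (0.35) and miR-92a-1-5p (0.38), where the median row was at 1.04. miR-212-3p was nearest to miR-142a-3p (0.32), miR-18a-3p (0.40) and miR-503-5p (0.42), with a median row at 1.08. For miR-132-5p the nearest were miR-92a-1-5p (0.30), miR-329-5p (0.32) and miR-142a-5p (0.34), with a median row at 0.85. For miR-132-3p they were miR-34c-5p (0.32), miR-467c-5p (0.37) and miR-222-3p (0.37), with a median row at 0.68. These profiles hold the difference between the groups that was known when the cluster was chosen. Rows that are also higher in the model group are therefore near by construction, and nothing is read from that. Adding 1 CPM shrinks differences most in scarce rows. The rows nearest to miR-132-3p had log2 fold changes of 0.92, 0.63 and 0.49, against its own 1.07.

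Arms of the cluster were not each other's nearest rows. Between miR-132-5p and miR-212-5p the difference was 0.39, with 5 of the 364 rows nearer to miR-132-5p and 3 nearer to miR-212-5p than that. Between both arms of miR-212 it was 0.65, with 27 rows nearer to miR-212-5p and 14 nearer to miR-212-3p. Between miR-132-5p and miR-212-3p it was 0.69, with 91 rows nearer to miR-132-5p and 20 nearer to miR-212-3p. The profile of miR-132-3p differed by 0.71 from miR-132-5p, 0.72 from miR-212-3p and 0.80 from miR-212-5p, and 200, 205 and 268 of the 364 rows were nearer to it than these arms, in the same order, while 101 rows were nearer to miR-132-5p, 25 to miR-212-3p and 65 to miR-212-5p than miR-132-3p was. Counts of 5 to 31 per library make the profile of miR-132-3p the least precise of the 4. All 4 arms had control counts of only 5 to 35 per library, whereas the 364 rows had at least 10 CPM. Differences between arms therefore hold the counting error of both. Whether their profiles differ beyond it was not tested.

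The scaling between libraries moved the members together with all other rows. The table's counts made up 10.2%, 13.6% and 11.9% of the authors' larger totals in model replicates 56, 57 and 59, and 9.43%, 8.73% and 7.17% in control replicates 43, 44 and 45. Scaled by those totals, the log2 fold changes were 2.78 for miR-212-5p, 2.32 for miR-212-3p, 2.07 for miR-132-5p and 1.91 for miR-132-3p, while the median of all rows shifted to 0.79. Relative to that median they were 1.98, 1.52, 1.27 and 1.12 in the same order, close to 2.02, 1.49, 1.35 and 1.06 with TMM factors. With 1 library left out, the log2 fold change of miR-212-5p lay between 1.88 and 2.22, against 2.03 with all. Its call, from which nothing is read here, was kept without control replicate 43 and lost without each of the other 5 libraries (control replicates 44 and 45 and model replicates 56, 57 and 59).

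**Figure D5:**
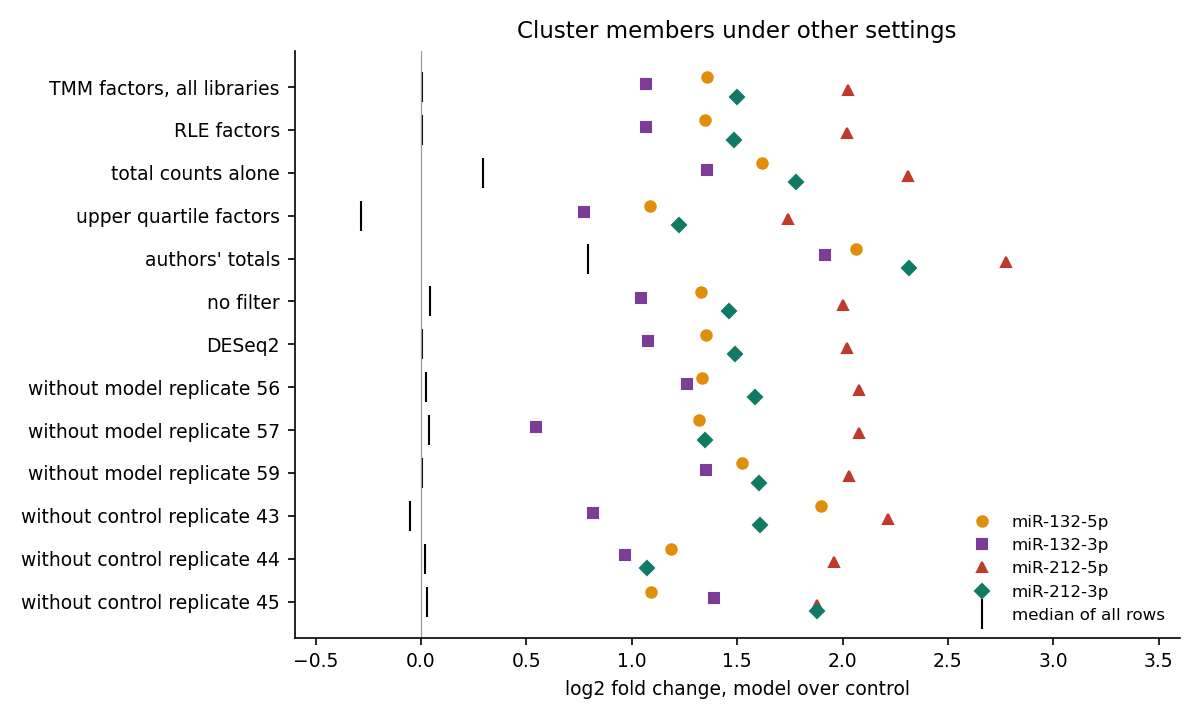
Log2 fold change of model over control (horizontal axis) of each member, and the median of all rows as a black tick, with TMM factors and under other scalings, filters, tests and omissions of 1 library (rows down the page). All plotted members stay above 0 and above the median of all rows, and the authors' totals shift members and median together.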

How the data were processed

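Per the labels' protocols, gel-purified small RNA between 18 and 30 nt was ligated to adapters with molecular identifiers. The authors deposited read counts per mature arm and RPM values relative to a larger library total, recovered here from rows of at least 100 counts. The submitters' processing notes name Bowtie2 and GRCm38.p6, and collapsing on the identifiers is not stated there or in the labels. If duplicates were kept, counting intervals are too narrow.

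The test on counts used R 4.3.3 and edgeR 4.0.16: rows passing filterByExpr with a minimum count of 10 and a minimum total of 15, TMM factors, a robust two-sided quasi-likelihood test, and Benjamini-Hochberg adjustment over 499 rows. The SE is the log2 fold change divided by the square root of its F statistic. Arm ratios were tested with limma 3.58.1, with 1 count added and a mean of at least 10 counts per arm. DESeq2 1.42.0 was an alternative. The scripts were tested on simulated data. Members and lists were chosen with earlier results of these data known.

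Rows other than members were named by rule: the 3 nearest profiles per arm, all called and the 3 most abundant rows of the Toll-like receptor list, and rows sharing a member's seed. The most abundant row is also named for the leukocyte and neuronal lists, but not for the remaining lists. miR-124-3p and miR-223-3p were named after their values were seen.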

Additional observations from a re-analysis of the deposited data

How the results depend on the processing

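All 4 members kept positive log2 fold changes under every alternative that gave them a value. With a mean of at least 10 CPM both arms of miR-132 were filtered out, and without model replicate 57 the arm ratio of miR-132 had too few counts. miR-212-5p was at 2.31 with total counts alone, 1.74 with upper quartile factors and 2.78 with the authors' totals, which gave 2.32 for miR-212-3p, 2.07 for miR-132-5p and 1.91 for miR-132-3p. Leaving out 1 library put miR-132-5p between 1.09 and 1.90. The number of members called was 4 with the authors' totals, where 124 of the 499 rows were called higher and the median row was at 0.79. It was 2 with no filter (both arms of miR-212), where 23 rows were called higher among more rows than the 499. When 1 library was left out it was 0 to 1, with 3 to 5 rows called higher. Shares of all rows are not given for the settings with no filter or with 1 library left out. Nothing is read from any of these counts of members. Rows called higher numbered 17 with total counts alone, 124 with the authors' totals, 23 with no filter, 19 with DESeq2, 8 with known rows alone and 3 to 5 without 1 library, against 5 with TMM. Rows called lower numbered 8 with RLE factors, 39 with upper quartile factors, 2 with the authors' totals, 35 with no filter, 19 with DESeq2, 2 with the newer quasi-likelihood dispersion, 7 with known rows alone and 0 to 5 without 1 library (44 to 71 at an unadjusted p under 0.05), against 1 with TMM. The cause of these changes was not tested. No paired analysis was possible because the groups share no replicate number. Control counts of 5 to 35 per arm limit all ratios given.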

Other observations

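A predicted row listed on chromosome 17 shared the seed of miR-212-5p and the 17 bases at its 5′ end.
predicted row: aCCUUGGCucuagacuguua
miR-212-5p: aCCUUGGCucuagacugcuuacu
It had 8, 5 and 6 counts in model replicates 56, 57 and 59, and 1, 1 and 2 in control replicates 43, 44 and 45, too few for the filter on low counts. Of its counts and those of miR-212-5p together, it took 4.95% to 8.99% in model libraries and 4.00% to 16.7% in control libraries. With its counts added to miR-212-5p, an alternative chosen after seeing the data, the log2 fold change of miR-212-5p was 2.00. Whether these reads came from Mir212 was not tested.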
